A study of Mus musculus with 12 samples.

Results

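The genes described here are 10 markers and regulators of neural and glioma stem cells, namely Sox2, Sox9, Olig2, Pou3f2, Msi1, Msi2, Fabp7, Nes, Prom1 and Cd44. They were chosen by name, with earlier results of these data known. Each was read from its probe set, the group of short oligonucleotides that reports a gene on the array. All 10 were measured, each by 1 probe set, out of 22206 probe sets on the array. The cells were GSC-H cells, mouse glioma stem cells re-isolated from brain tumors that had grown from Ink4a/Arf-null neural stem cells carrying a retroviral, oncogenic H-RasV12. Every group therefore lacked Ink4a/Arf and overexpressed H-RasV12, and 1 such cell population was used. The cells were kept in serum-free medium with epidermal and basic fibroblast growth factors and exposed for 24 h to phosphate-buffered saline in normoxia (Nx P), 3 mM doranidazole in normoxia (Nx D), saline in hypoxia (Hx P) or 3 mM doranidazole in hypoxia (Hx D). Normoxia was 21% oxygen according to the sample labels and hypoxia was 1%. Doranidazole is a nitroimidazole developed to sensitize hypoxic tumor cells to radiation. Each of the 4 groups had 3 arrays.

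Neural stem cells are held in an undifferentiated state by a small set of transcription factors, RNA-binding proteins and surface proteins, and glioma stem cells use many of the same genes. SOX2 and POU3F2 bind DNA together at many progenitor enhancers, SOX9 favours glial fate and OLIG2 sustains progenitors of the oligodendrocyte lineage and of gliomas. The Musashi proteins control translation of target messenger RNAs, brain lipid-binding protein (Fabp7) and nestin are typical of radial glia, and CD44 and prominin-1 are used at the cell surface to isolate glioma stem cells.

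In hypoxia, doranidazole lowered 6 of the 10 genes and raised 0. Fabp7, Sox2, Sox9, Olig2, Msi2 and Msi1 fell, by between 2.71-fold for Msi1 and 58.9-fold for Fabp7, whose signal in Hx D was below the array median on 2 of 3 arrays. Nes, Cd44, Prom1 and Pou3f2 did not pass the test. The median log2 change of the 10 genes was -1.74, against 0.09 over all probe sets, of which 15.1% were lower and 12.6% higher. Because bright probe sets fell more often than dim ones, the count was also set beside the 8197 probe sets with a mean log2 signal above 7 in Hx P, a limit chosen after seeing the data. Of those, 33.1% were lower, with a median log2 change of -0.32, and 8 of the 10 genes lay above that limit, 6 of them lower. Hx P is the group from which the fall was measured, so a limit set on it favours falls. Olig2 lay above it in Hx P alone, with means of 7.05 there, 6.62 in Nx P, 5.72 in Nx D and 4.97 in Hx D. RNA came from whole cultures, in which fewer cells of a type and less RNA per cell cannot be told apart.

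In normoxia, the drug lowered Fabp7 alone among the 10 genes, by 3.28-fold, and raised 0. Over all probe sets 0.293% were lower and 1.29% higher. The median log2 change of the 10 genes was 0.27, against -0.01 over all probe sets. An unadjusted p under 0.05 was reached by 2 of the 10, Fabp7 and Msi2. The normoxia groups were taken to be paired by replicate number, a pairing read from correlations in these data and not stated by the labels. With that number as a block within these groups 1 of the 10 genes passed as before, while the count over all probe sets rose from 287 higher and 65 lower to 925 and 689.

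The difference between the response in hypoxia and that in normoxia was itself tested. It passed for 6 of the 10 genes, Fabp7, Sox2, Sox9, Msi2, Msi1 and Cd44, each with the more negative response in hypoxia. Over all probe sets the response in hypoxia was lower for 8.5% and higher for 5.02%. Quantile normalization moved that split from 1888 lower and 1115 higher to 1492 and 1432. Olig2, which fell in hypoxia, had a difference of -1.18 on the log2 scale that did not pass (adjusted p = 0.266).

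Oxygen alone moved few of these genes. With saline, Sox9 was 2.44-fold higher in hypoxia than in normoxia and the other 9 genes did not pass, where 1.46% of all probe sets were higher and 0.518% lower. With doranidazole, Fabp7, Sox2, Msi2, Sox9, Msi1 and Cd44 were lower in hypoxia than in normoxia, 6 of the 10, against 16.5% of all probe sets lower and 13.5% higher. Comparisons that share an untreated or a treated group share its arrays, so that these counts are not independent of each other.

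**Figure D1:**
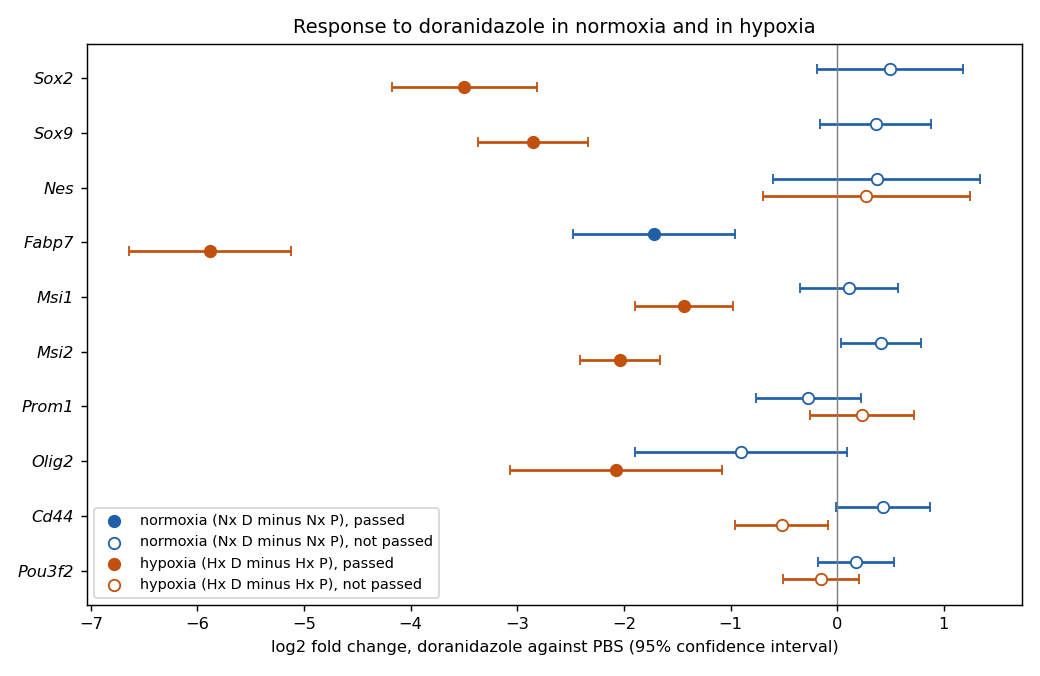
Log2 fold change with doranidazole against saline (PBS, x axis) for each of the 10 genes (y axis), in normoxia (blue) and in hypoxia (orange), with 95% confidence intervals from the fit over 12 arrays. Filled points passed at an adjusted p under 0.05, which 6 genes did in hypoxia, all below 0, and Fabp7 did in normoxia.

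The signal in the plots and sentences below is the deposited log2 value of a probe set, with 3 arrays a group named in replicate order. Fold changes hold on this deposited scale, whose highest value, 19.38, is above the log2 range of a 16-bit scanner (16). Array medians lay between 4.65 and 4.88, with the Hx D arrays at 4.75 to 4.88 and the others at 4.65 to 4.73. With array medians set equal, the median change of all probe sets with the drug in hypoxia moved from 0.09 to -0.03 and the split from 2798 higher and 3356 lower to 2051 and 3789, and 7 of the 10 genes, the additional one being Cd44, were lower.

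**Figure D2:**
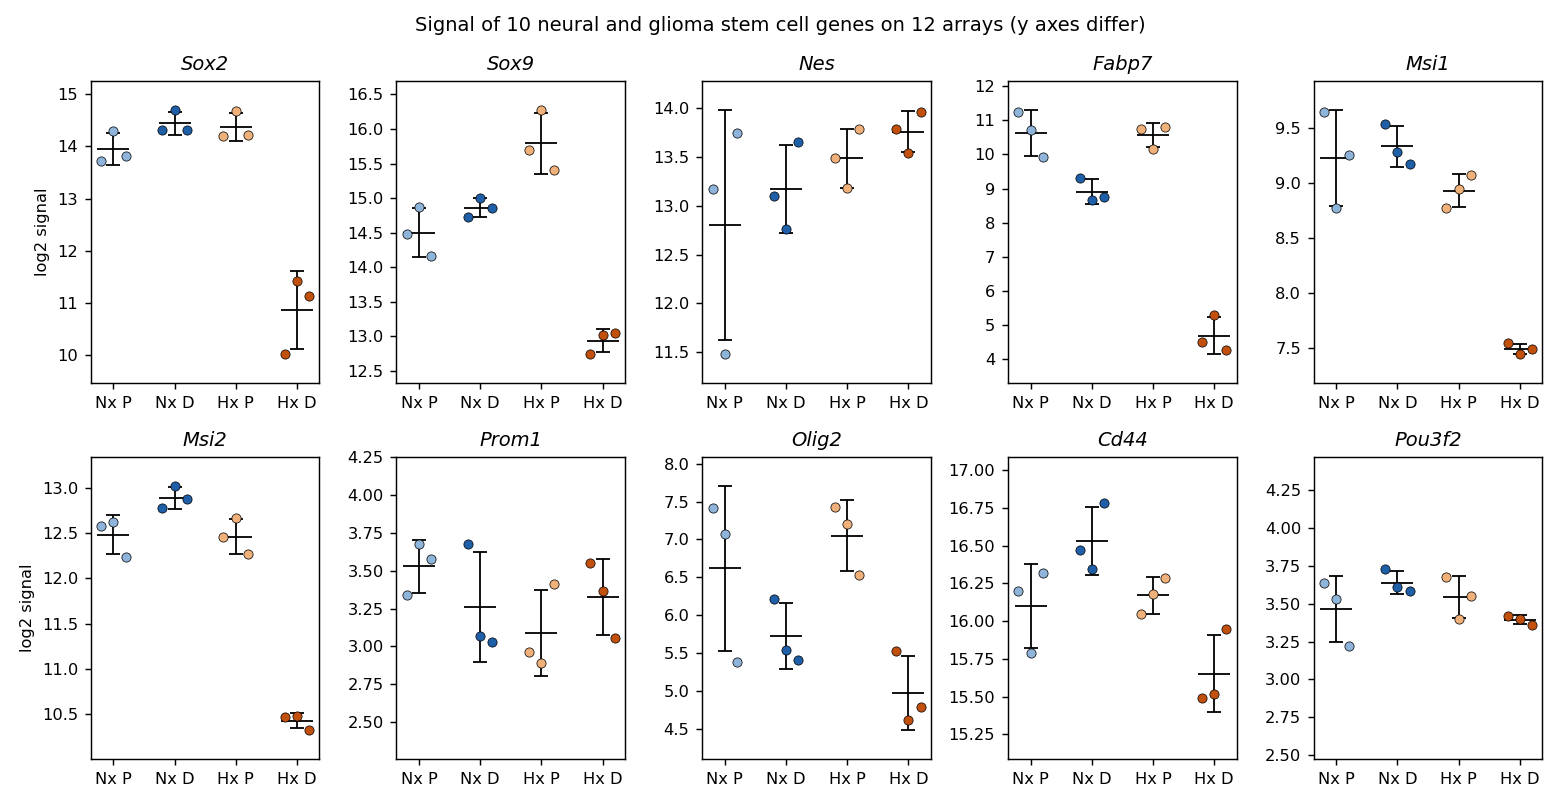
Log2 signal (y axis, scaled separately for each gene) of the 10 genes on 12 arrays in the 4 groups (x axis). Points are single arrays and bars are the mean ± SD of 3 arrays. For Sox2, Sox9, Fabp7, Msi1 and Msi2 the 3 Hx D arrays lie below all 9 others.

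Sox2, which maintains the undifferentiated state of neural progenitors, had signals of 13.71, 14.30 and 13.82 in Nx P, 14.31, 14.69 and 14.32 in Nx D, 14.20, 14.67 and 14.22 in Hx P, and 10.03, 11.43 and 11.14 in Hx D. The first 3 groups lay close together, and all Hx D arrays were lower than any other array. With doranidazole in hypoxia Sox2 fell by 3.50 on the log2 scale (SE 0.315, 11.3-fold, limma adjusted p = 4.68e-06). In normoxia its change was 0.49 (SE 0.315, adjusted p = 0.61), although the 3 Nx D arrays were above the 3 Nx P arrays. The response in hypoxia was lower than that in normoxia by 3.99 on the log2 scale (95% confidence interval -4.96 to -3.03, adjusted p = 9.96e-05). Within hypoxia, the lowest Hx D array was 1 at 10.03, and without it Sox2 still fell by 3.08.

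Sox9, a SOXE factor of glial progenitors, was the one gene of the 10 that passed between the oxygen levels without the drug. Its signals were 14.48, 14.87 and 14.16 in Nx P, 14.73, 15.00 and 14.86 in Nx D, 15.70, 16.27 and 15.41 in Hx P, and 12.75, 13.02 and 13.05 in Hx D. All Hx P arrays were the highest and all Hx D arrays the lowest, so that the groups in hypoxia lay on either side of those in normoxia. With saline, hypoxia raised Sox9 by 1.29 (SE 0.239, adjusted p = 0.0161), a call lost when replicate 1 or 3 of Nx P or replicate 1 or 2 of Hx P was left out (1.05 to 1.34, adjusted p between 0.0604 and 0.0859). With the drug in hypoxia Sox9 fell by 2.85 (SE 0.239, 7.22-fold, adjusted p = 2.60e-06), and its Hx D level was 1.92 below that in Nx D (adjusted p = 7.51e-05). The normoxia change was 0.36 (adjusted p = 0.634). The difference of the responses was -3.21 (SE 0.338, adjusted p = 6.77e-05).

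Olig2, a basic helix-loop-helix factor of glioma and oligodendrocyte progenitors, had dimmer and more variable signals. They were 7.41, 7.07 and 5.38 in Nx P, 6.22, 5.54 and 5.40 in Nx D, 7.42, 7.20 and 6.53 in Hx P, and 5.53, 4.61 and 4.78 in Hx D. The 2 groups in hypoxia did not overlap, whereas replicate 3 of Nx P was as low as the Nx D arrays. In hypoxia Olig2 fell by 2.08 (SE 0.459, 4.22-fold, adjusted p = 0.00439). In normoxia the change was -0.90 (SE 0.459, 95% confidence interval -1.89 to 0.10, adjusted p = 0.467), and leaving out replicate 3 of Nx P made it -1.52.

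Pou3f2 (Brn2), the POU factor that partners SOX2, was at 3.64, 3.53 and 3.22 in Nx P, 3.73, 3.61 and 3.58 in Nx D, 3.68, 3.40 and 3.55 in Hx P, and 3.42, 3.40 and 3.36 in Hx D. It was below the array median on all 12 arrays and its groups overlapped in every comparison but Hx D against Nx D, where the change was -0.24 (adjusted p = 0.284). With doranidazole it changed by 0.18 in normoxia and -0.15 in hypoxia (95% confidence interval -0.50 to 0.20), and neither passed. At such signals a loss of transcript would have little room to show.

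Both Musashi genes fell in hypoxia, and the difference between them was not tested. Msi1 was at 9.65, 8.78 and 9.26 in Nx P, 9.54, 9.29 and 9.18 in Nx D, 8.78, 8.95 and 9.08 in Hx P, and 7.54, 7.45 and 7.49 in Hx D. The Hx D arrays were tight (SD 0.0469, n = 3) and more than 1 log2 unit below all others. Msi1 fell by 1.44 in hypoxia (SE 0.213, 2.71-fold, adjusted p = 0.000256), and its change in normoxia was 0.11 (95% confidence interval -0.35 to 0.57, adjusted p = 0.933). Msi2 was at 12.58, 12.63 and 12.24 in Nx P, 12.78, 13.02 and 12.87 in Nx D, 12.45, 12.66 and 12.27 in Hx P, and 10.47, 10.48 and 10.33 in Hx D. Here too the Hx D arrays stood apart, and the 3 Nx D arrays were the highest. Msi2 fell by 2.04 in hypoxia (SE 0.174, 4.10-fold, adjusted p = 3.00e-06). Its normoxia change of 0.41 (SE 0.174) had an unadjusted p of 0.0354 and an adjusted p of 0.331. The differences of response were -2.44 for Msi2 (adjusted p = 4.81e-05) and -1.55 for Msi1 (adjusted p = 0.00429).

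Fabp7, the brain fatty acid-binding protein of radial glia, changed in both oxygen conditions. It was at 11.25, 10.70 and 9.92 in Nx P, 9.32, 8.66 and 8.74 in Nx D, 10.74, 10.17 and 10.82 in Hx P, and 4.52, 5.30 and 4.27 in Hx D. The treated arrays lay below the saline arrays at both oxygen levels, and 2 of the 3 Hx D arrays were below the median of their array. Fabp7 fell by 5.88 in hypoxia (SE 0.351, 58.9-fold, adjusted p = 1.74e-07) and by 1.71 in normoxia (SE 0.351, 3.28-fold, adjusted p = 0.0313). The call in normoxia was lost without replicate 1 or 2 of Nx P, any of the 3 Nx D arrays or replicate 1 of Hx P, with changes between -1.92 and -1.40 and adjusted p between 0.0522 and 0.136. The fall was larger in hypoxia by 4.17 on the log2 scale (SE 0.496, adjusted p = 0.000154).

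Nes, which encodes the intermediate filament nestin, did not follow these genes. It was at 13.18, 11.48 and 13.74 in Nx P, 13.10, 12.76 and 13.66 in Nx D, 13.49, 13.18 and 13.79 in Hx P, and 13.78, 13.54 and 13.95 in Hx D. All 4 groups overlapped, and replicate 2 of Nx P was the lowest array by more than 1 log2 unit. The change with doranidazole was 0.27 in hypoxia (95% confidence interval -0.69 to 1.24, adjusted p = 0.692) and 0.37 in normoxia (95% confidence interval -0.60 to 1.34), the latter turning to -0.29 without that array.

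Cd44, the hyaluronan receptor, was at 16.20, 15.79 and 16.32 in Nx P, 16.47, 16.34 and 16.78 in Nx D, 16.05, 16.18 and 16.28 in Hx P, and 15.49, 15.52 and 15.94 in Hx D. The treated arrays were above the saline arrays in normoxia and below them in hypoxia, without overlap in either. Neither response passed alone, at 0.43 in normoxia (SE 0.202, adjusted p = 0.402) and -0.52 in hypoxia (SE 0.202, adjusted p = 0.0746). Their difference of -0.95 (SE 0.285, adjusted p = 0.0441) passed narrowly, and it was lost when any array but replicate 3 of Nx P or of Hx D was left out (-1.04 to -0.79, adjusted p up to 0.106). With the drug, Cd44 was 1.84-fold lower in hypoxia than in normoxia (adjusted p = 0.00557).

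Prom1, which encodes the stem cell surface antigen CD133, was at 3.34, 3.68 and 3.58 in Nx P, 3.68, 3.07 and 3.03 in Nx D, 2.96, 2.89 and 3.42 in Hx P, and 3.55, 3.37 and 3.05 in Hx D. It was below the array median on all 12 arrays, and its groups overlapped in every comparison. The change with doranidazole was -0.27 in normoxia and 0.23 in hypoxia (95% confidence interval -0.26 to 0.73, adjusted p = 0.481). For Prom1 and Pou3f2 the label of a stem cell gene was not borne out in these cells by a signal above the array median.

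The promoter windows of 3 genes that fell, Fabp7, Sox2 and Olig2, are shown beside that of Nes, which did not pass, so that their letters can be compared. RefSeq sequence of GRCm38.p6 was searched over the 250 bases before each transcript start on both strands for 7 motifs, and 8 of the 10 genes were matched, all but Sox9 and Msi1. The windows of Fabp7 (chr10:57784673-57784922), Sox2 (chr3:34649745-34649994), Olig2 (chr16:91225300-91225549) and Nes (chr3:87970843-87971092), all on the plus strand, read as follows, with motif matches of either strand in capitals, so that ATTGG is a CCAAT box and TTCCCA an RBPJ core on the other strand.
Fabp7: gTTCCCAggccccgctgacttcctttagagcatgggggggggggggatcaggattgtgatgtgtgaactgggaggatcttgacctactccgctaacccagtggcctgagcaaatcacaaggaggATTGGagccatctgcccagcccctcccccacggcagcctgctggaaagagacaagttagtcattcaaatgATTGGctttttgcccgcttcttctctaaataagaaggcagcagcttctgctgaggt
Sox2: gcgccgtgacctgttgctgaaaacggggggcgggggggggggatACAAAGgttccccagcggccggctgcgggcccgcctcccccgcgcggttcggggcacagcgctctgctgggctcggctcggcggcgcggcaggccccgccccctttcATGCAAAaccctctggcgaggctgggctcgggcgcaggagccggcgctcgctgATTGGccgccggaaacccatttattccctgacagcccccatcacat
Olig2: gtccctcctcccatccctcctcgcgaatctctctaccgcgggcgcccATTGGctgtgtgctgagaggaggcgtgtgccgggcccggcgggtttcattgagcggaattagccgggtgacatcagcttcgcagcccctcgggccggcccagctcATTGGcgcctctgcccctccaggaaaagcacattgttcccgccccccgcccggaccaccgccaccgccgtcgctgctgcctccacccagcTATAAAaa
Nes: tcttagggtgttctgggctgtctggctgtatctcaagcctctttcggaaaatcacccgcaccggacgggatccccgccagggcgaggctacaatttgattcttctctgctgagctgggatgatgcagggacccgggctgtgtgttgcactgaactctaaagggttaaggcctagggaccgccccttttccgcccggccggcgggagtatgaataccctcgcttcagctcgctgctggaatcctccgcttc
The Sox2 window holds the SOX core ACAAAG (16.5% of 32817 promoter windows of the same length hold it), the octamer part ATGCAAA (4.13%) and a CCAAT box. The Fabp7 window holds 2 CCAAT boxes and the RBPJ core TGGGAA of Notch target genes (21.6%), which Prom1 and Cd44 also hold. Olig2 has 2 CCAAT boxes and the TATA box TATAAA (12.4%), and Nes has 0 of the 7 motifs. CCAAT occurs in the first window of 6 of the 8 genes, among them Prom1 and Pou3f2, and in 33.8% of all windows. The hypoxia response core ACGTG (16.6%) occurs in the windows of Msi2, Cd44 and Pou3f2, in Msi2 as overlapping matches on both strands, and the antioxidant response core TGACNNNGC (10.2%) in the first window of 0 of the 8 genes and in the second window of Prom1. A match describes letters only.

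Some of the closest relatives fell beside the members and others did not pass or rose. Among the SOXB1 relatives of Sox2, Sox3 fell in hypoxia by 1.26 (adjusted p = 0.0012) and in normoxia by 1.47 (adjusted p = 0.0104), and Sox1, at 0.60 in hypoxia (adjusted p = 0.299), did not pass. Sox3 was dim, with means of 4.99 in Nx P, 3.52 in Nx D, 4.70 in Hx P and 3.44 in Hx D. Its treated arrays were all below the median of their array. Of the SOXE genes, Sox8 changed by 0.53 in hypoxia (adjusted p = 0.412), and Sox10, at 2.83 in Hx P and 3.30 in Hx D, changed by 0.47 (adjusted p = 0.0493) between signals that were all below the median of their array. These are separate tests, and the difference between relatives was not tested.

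Fabp3, the heart-type fatty acid-binding protein, rose where Fabp7 fell. It was at 5.08, 5.07 and 4.96 in Nx P, 7.17, 6.84 and 7.13 in Nx D, 4.62, 4.59 and 4.66 in Hx P, and 8.49, 8.07 and 8.71 in Hx D. Treated arrays were above all saline arrays, and Fabp3 rose by 2.01 in normoxia (adjusted p = 0.000633) and by 3.80 in hypoxia (13.9-fold, adjusted p = 5.60e-08). Fabp5, the epidermal type, fell by 1.72 in hypoxia (adjusted p = 0.00728) and changed by -1.32 in normoxia (adjusted p = 0.152).

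Olig1, the neighbour and partner of Olig2 in oligodendrocyte development, fell by 1.84 in hypoxia (adjusted p = 0.024) and changed by -1.78 in normoxia (adjusted p = 0.148), and Olig3 changed by -0.24 (adjusted p = 0.414). Pou3f1 rose by 1.32 in hypoxia (adjusted p = 0.000522), from dim signals, and Pou3f4 changed by 0.17 (adjusted p = 0.492). Vim, the intermediate filament that copolymerises with nestin, fell by 0.72 in hypoxia (adjusted p = 0.00274), while Gfap, the astrocyte filament, changed by 0.39 (adjusted p = 0.0998). Prom2 changed by -0.09 in hypoxia (adjusted p = 0.799).

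**Figure D3:**
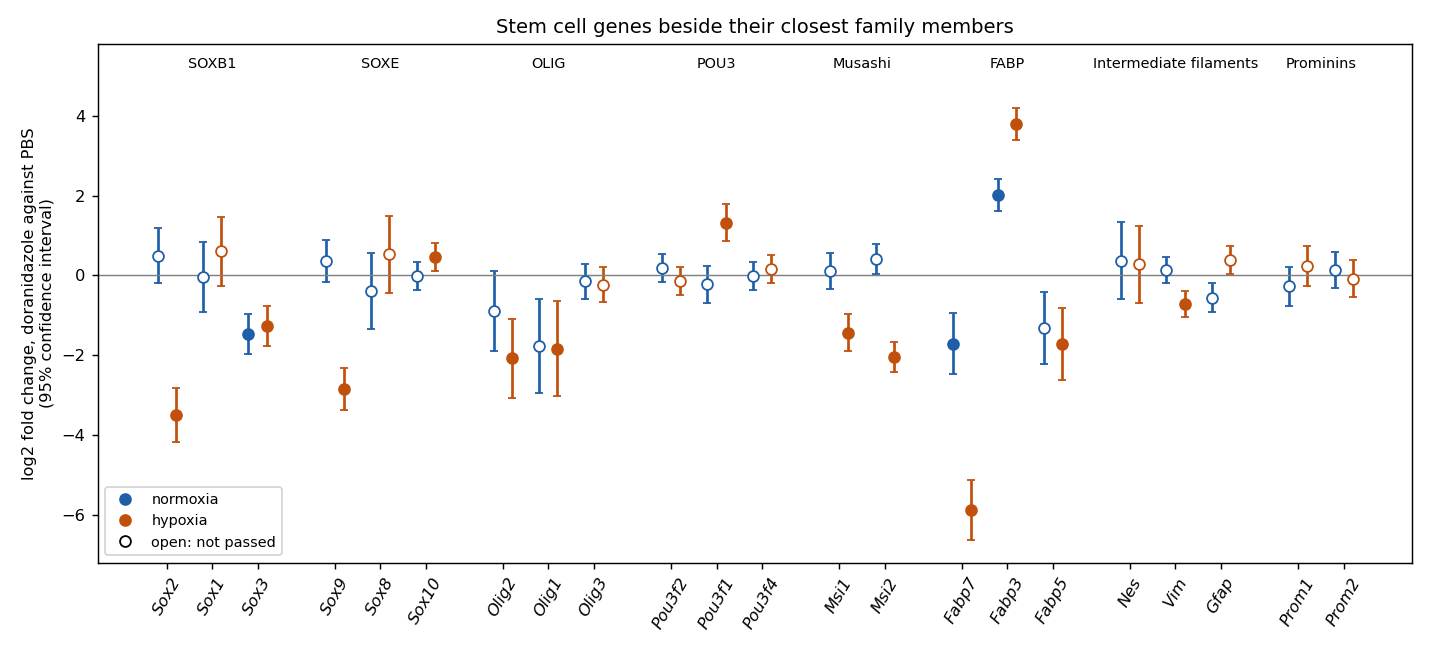
Log2 fold change with doranidazole against saline (y axis, 95% confidence intervals) in normoxia (blue) and hypoxia (orange) for the stem cell genes other than Cd44 and their closest family members (x axis), with open points where the test was not passed. Fabp3 rose by 3.80 in hypoxia, where Fabp7 fell by 5.88.

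Of 127 further measured genes in 9 lists around these members, 43 were lower and 16 higher with doranidazole in hypoxia, with a median log2 change of -0.24. Over all probe sets 15.1% were lower and 12.6% higher there. In normoxia 2 of the 127 were lower, Sox3 and Sox11, and 3 higher, Notch3, Fabp3 and Vcan. The shares over all probe sets were 0.293% lower and 1.29% higher. Progenitor transcription factors had 9 of 17 lower and 2 higher in hypoxia, the lower ones including the Hedgehog effector Gli2 (-2.40, adjusted p = 8.62e-06), the eye and forebrain factor Pax6 (-1.68) and the gliogenic factor Nfia (-2.91). The higher ones were Pou3f1 and Gli1, so that the GLI genes did not move together. Gli1 rose by 0.91 (adjusted p = 0.0185) at dim means of 2.87 in Hx P and 3.78 in Hx D, and Gli3 changed by -0.38 (adjusted p = 0.322). The other SOX genes had 4 of 15 lower and 1 higher, among them Sox11 (-2.71, adjusted p = 1.19e-06) and Sox6 (-3.24, adjusted p = 3.40e-05). In the Notch pathway, which maintains neural stem cells, 8 of 19 were lower and 4 higher (Dll1 1.86, Numbl 1.35, Nrarp 1.23, Notch2 0.87). Its ligand Jag1 was at 11.29, 12.43 and 11.86 in Nx P, 10.32, 10.58 and 11.04 in Nx D, 13.53, 13.28 and 13.23 in Hx P, and 9.42, 9.79 and 9.08 in Hx D, the Hx P arrays being the highest and the Hx D arrays the lowest. Jag1 fell by 3.91 (adjusted p = 9.08e-07), the target Hey1 by 2.41 and the glycosyltransferase Lfng by 2.76, and Jag1 and Hey1 were both higher in hypoxia than normoxia with saline, by 1.48 and 2.44. Of the relatives of Hey1, Hes6 fell by 2.47, whereas Hes1 (-0.32), Hes5 (0.25) and Hey2 (-0.08) did not pass. Nrarp, another Notch target, was among the higher genes, so that the targets did not move together. For chromatin and self-renewal factors the counts were 6 of 13 lower and 1 higher, with Hmga2 lower by 2.09 (adjusted p = 0.00211) and the Polycomb enzyme Ezh2 at -1.35 (adjusted p = 0.00781).

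Counts in the other 5 lists were as follows. Hyaluronan and CD44 partners had 3 of 12 lower and 1 higher. Among them were the membrane protease Mmp14 at -1.80 (adjusted p = 1.69e-05), the hyaluronan-mediated motility receptor Hmmr at -3.60 and Lgals9 at 1.73. Surface markers and receptors had 5 of 18 lower and 3 higher. Lower were, among others, Ptprz1 at -3.71 and the integrin Itga6 at -1.52. Higher were Nrcam at 1.64, Cd9 at 1.46 and L1cam at 1.01. L1cam was below the array median in both groups, with means of 2.71 in Hx P and 3.72 in Hx D, and Nrcam rose from a dim mean of 3.54 in Hx P. Intermediate filaments had 4 of 12 lower and 0 higher, with neurofilament light chain Nefl at -1.44. Fatty acid and retinoid binding proteins had 2 of 9 lower and 2 higher, with Crabp1 at -1.83 and Crabp2 at 1.46. Progenitor RNA-binding proteins had 2 of 12 lower, Qk at -1.56 (adjusted p = 3.09e-05) and Elavl4 at -2.67, and 2 higher, among them Igf2bp3 at 1.10.

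**Figure D4:**
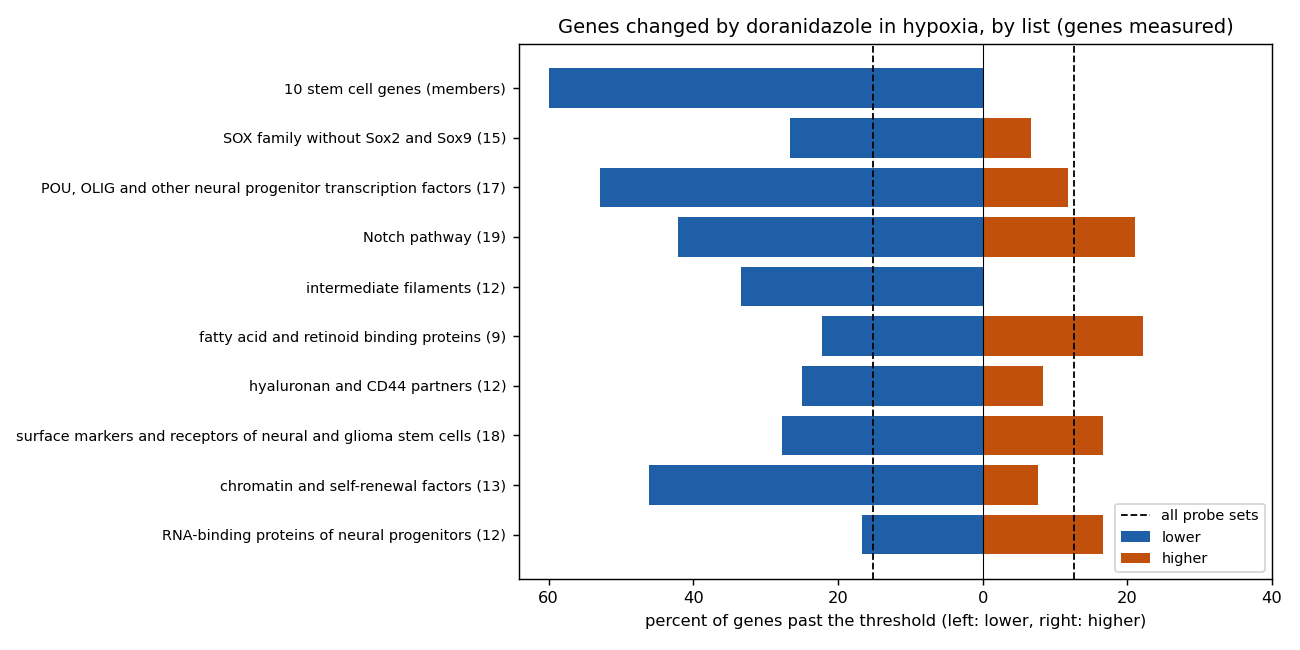
Percent of genes past the threshold with doranidazole in hypoxia (x axis, lower to the left and higher to the right) for the 10 stem cell genes and 9 lists around them (y axis, with the number of measured genes). Dashed lines mark all 22206 probe sets, at 15.1% lower and 12.6% higher.

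Markers of other cell types were read because a culture can hold differentiated progeny. Microglia and leukocyte markers were below the array median on all arrays for 6 of 6. The same held for 5 of 7 neuron markers, 4 of 5 oligodendrocyte markers, 4 of 5 endothelial markers, 2 of 6 mature astrocyte markers and 2 of 5 fibroblast and pericyte markers. With doranidazole in hypoxia, 1 of 5 oligodendrocyte markers was lower and 0 higher, 2 of 5 fibroblast and pericyte markers lower and 1 higher, and 1 of 6 mature astrocyte markers lower and 2 higher. In the neuron, the microglia and leukocyte, and the endothelial lists, 1 marker each was higher and 0 lower. Over all probe sets 15.1% were lower and 12.6% higher. The markers named next were picked after their values were seen. Cnp, the oligodendrocyte marker that was not below the median on every array, fell by 3.12 (adjusted p = 9.29e-06), and the other 4 did not pass. The summed linear signal of that list, in which Cnp had the highest signal, was 745 to 926 in Hx P and 94.7 to 158 in Hx D. In the fibroblast and pericyte list Col3a1 fell by 4.54 (adjusted p = 6.39e-06) and Pdgfrb by 1.83 (adjusted p = 0.00875), whereas Col1a1 rose by 0.80 (adjusted p = 0.00942), from a mean of 4.33 in Hx P to 5.14 in Hx D. The sum of that list, in which Col3a1 had the highest signal, was 3692 to 5525 in Hx P and 177 to 352 in Hx D. In the mature astrocyte list the gap junction gene Gja1 rose by 1.23 (adjusted p = 0.00378) and the glutamate transporter Slc1a2 by 1.70 (adjusted p = 0.000868), whereas the water channel Aqp4 fell by 2.36 (adjusted p = 0.000412). Its sum, in which Gja1 had the highest signal, was 17980 to 22140 in Hx P and 42020 to 53340 in Hx D. These lists thus held markers that changed in both directions between the same groups in which the stem cell genes fell, and their part in the falls was not tested.

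The genes with the most similar pattern over the 12 arrays were found by Pearson's r, which is given as a description, since arrays of a group share their treatment. Sox2 was closest to C1ql3 (r = 0.989), Sema3a (r = 0.987) and Ncoa1 (r = 0.987). Fabp7 was closest to Adcy8 (r = 0.988), Msi2 to Ppp2r3a (r = 0.986), Msi1 to Adgrl1 (r = 0.988) and Sox9 to Cnrip1 (r = 0.983). Olig2 followed B130024G19Rik (r = 0.953) and Ptprz1 (r = 0.953), and Cd44 followed Fsd1 (r = 0.960). Among the members, Sox2 and Msi2 had r = 0.962, Msi1 and Msi2 r = 0.936, Sox2 and Sox9 r = 0.903, and Sox2 and Fabp7 r = 0.890. Once group means were removed these were 0.293, -0.251, 0.648 and 0.0333, so that the similarity of the Musashi genes, and that of Sox2 with Fabp7, lay between the groups.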

How the data were processed

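Total RNA was read on 12 arrays of the Clariom S Mouse type, 3 in each of 4 groups. The samples came from 1 experiment and are called biologically independent, so p-values cover the spread between them. The authors analysed the arrays with Transcriptome Analysis Console and deposited log2 signals of 22206 probe sets. Summarization and scaling are not given in the sources used here, and array number limits the precision. Both deposited tables held equal values (0 values differed) and 0 of 66 array pairs were identical. Of the probe sets 19572 had 1 gene symbol and 2634 none. The probe set with the highest mean stood for a gene with several.

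The values were fitted unchanged with limma 3.58.1 in R 4.3.3 (lmFit and eBayes, two-sided) over the 12 arrays without a block, with Benjamini-Hochberg adjustment over all probe sets and a threshold of 0.05. The fit was tested on simulated data. Fold is 2 to the power of the log2 difference. Of 184 symbols in the member, context and marker lists 170 were matched. The members and lists were chosen with earlier results of these data known. All members, closest family members and at most the 3 list genes with the smallest p per comparison were named, with likeness genes by the highest r. Also named were the genes higher with the drug in hypoxia in the progenitor transcription factor, Notch pathway and surface marker lists. Gli3, Hes1, Hes5, Hes6 and Hey2 were named as relatives of Gli2 and Hey1.

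Replicate numbers were taken to pair samples where every correlation of deviations from group means exceeded 0.1. For replicates 1, 2 and 3 these were 0.202, 0.329 and 0.326 between the normoxia groups, -0.0202, -0.0240 and -0.0466 in hypoxia, -0.0205, 0.264 and 0.356 between saline groups, and 0.143, 0.0310 and -0.00816 between treated groups. The normoxia groups were therefore taken to be paired by number, a pairing that comes from the data and the shared numbers. The main fit did not use it, so its normoxia p-values and intervals are unpaired. The replicate block was run only as an alternative.

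Alternatives were quantile and cyclic loess normalization, equal array medians, leaving out dim probe sets with a mean under 3.38 (percentile 30), a trended robust prior, array weights, the replicate block, only the groups compared, a fold above 2 or below 0.5 with an unadjusted p, and each array left out.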

Additional observations from a re-analysis of the deposited data

Results flagged for a closer look

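The response to doranidazole differed between hypoxia and normoxia for 6 of the 10 genes, by the interaction term of the limma fit over 12 arrays. The response in hypoxia minus that in normoxia was -3.99 for Sox2 (SE 0.445, adjusted p = 9.96e-05), -3.21 for Sox9 (SE 0.338, adjusted p = 6.77e-05) and -4.17 for Fabp7 (SE 0.496, adjusted p = 0.000154). It was -2.44 for Msi2 (SE 0.246, adjusted p = 4.81e-05), -1.55 for Msi1 (SE 0.301, adjusted p = 0.00429) and -0.95 for Cd44 (SE 0.285, adjusted p = 0.0441), against 8.5% of all probe sets with a lower response in hypoxia. In Fabp7 both responses were falls, in Cd44 the treated arrays lay above the saline arrays in normoxia and below them in hypoxia, and in the other 4 genes the fall passed in hypoxia alone.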

How the results depend on the processing

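Among 1065 values of the 10 genes under 22 settings, 1036 kept their side of the threshold, 25 no longer passed, 4 newly passed and 0 reversed as calls. Of the 1036, 27 changed sign without passing under either setting. The falls of Sox2, Sox9, Fabp7, Msi1, Msi2 and Olig2 with doranidazole in hypoxia passed under every setting run. The number of members called there was 6 to 7, for the difference of response 5 to 6, and with the drug in hypoxia against normoxia 5 to 7. In normoxia 1 member, Fabp7, passed under all settings but the left-out arrays, which gave 0 to 1. Between saline groups 1 member, Sox9, passed, but 0 did with only the 2 groups compared (adjusted p = 0.0963), and left-out arrays gave 0 to 1. Cd44 lost its difference of response in 13 of 20 settings, among them quantile (-0.93) and cyclic loess (-0.79) normalization, passed with the drug in hypoxia under equal medians, the block over 12 arrays and without replicate 3 of Hx D, and was lost against normoxia with the drug under the fold rule. Pou3f2 was lower with the drug in hypoxia against normoxia under quantile normalization alone (-0.50, adjusted p = 0.0355).

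With the replicate block over 12 arrays 1 member passed in normoxia, 7 with the drug in hypoxia, 6 for the difference, 1 between saline groups and 6 between treated groups. With the block over the normoxia groups alone, which were taken to be paired, the adjusted p of Fabp7 was 0.00308. In the hypoxia groups, whose numbers were not taken to pair them, that block gave 6 members. Over all probe sets the counts in normoxia were 287 higher and 65 lower, against 877 and 509 with array weights, 925 and 689 with the block over these groups, 613 and 397 with only these groups, 531 and 322 under the fold rule, and 337 and 102 with cyclic loess. With an array left out the higher count was 36 (without replicate 1 of Nx D) to 443 (without replicate 3 of Hx D) and the lower 2 (without replicate 1 of Nx D) to 200 (without replicate 3 of Hx P). With the drug in hypoxia they were 2798 and 3356, against 1525 and 2518 with the block over these groups and 1537 and 2642 under the fold rule. For the difference of response they were 1115 and 1888, against 1779 and 2585 without replicate 3 of Hx D. Between saline groups they were 324 and 115, against 1039 and 1234 with array weights, 106 and 9 with only these groups, 550 and 501 under the fold rule, and 372 and 192 with the block over 12 arrays. With an array left out the higher count was 137 (without replicate 1 of Hx P) to 654 (without replicate 3 of Hx P) and the lower 10 (without replicate 2 of Hx P) to 778 (without replicate 3 of Hx P). Setting array medians equal moved the split between treated groups from 3002 higher and 3654 lower to 2061 and 4111, the fold rule gave 1457 and 2790, and leaving out replicate 2 of Nx D gave 1942 and 2902. Prom1 and Pou3f2 gave signals below the array median, at which the arrays limit what could be seen, and Prom1 had no value with dim probe sets left out. The cause of these shifts was not tested.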
